A study of Solenopsis invicta with 52 samples.

Results

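Brain-restricted genes of the fire ant Solenopsis invicta are described here as the 200 genes whose level in the worker brain most exceeded their level in the gaster, the rear part of the abdomen. Levels are given in CPM, the share of a library's gene counts that a gene takes, where 1 CPM is 1 count in 1000000. The members had a mean of at least 10 CPM in each of 4 groups of brains, and the largest mean log2(CPM + 0.5) in 28 brain libraries minus the mean in 24 gaster libraries. They come from 7069 genes at that minimum, among 16314 gene rows of which 1007 consecutive rows were left out by the rule. The values of brain against gaster chose the members and are given as a description, with no test.

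Genes read mainly in the brain of an insect usually include those for synaptic transmission, ion channels, neuropeptides and their receptors, and the specification of neurons and glia. Neurons are not confined to the brain: the ventral nerve cord sends ganglia into the gaster, which also holds the fat body, the gut and the glands. In Solenopsis invicta a supergene, a chromosome stretch inherited as a block in the variants SB and Sb, goes with colony form. Monogyne colonies have a single egg-laying queen and workers that are SB/SB, and polygyne colonies have several queens and workers of SB/SB and SB/Sb. None of the 16314 identifiers matched an entry of the RefSeq table used here, so 0 were matched to a name. The members are therefore given by identifier with no role, and the tissue labels were not checked against neural marker genes, nor the genotype labels against a gene of the supergene.

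The study moved dark worker pupae between colonies and sampled single workers, so that a worker's genotype, its colony of origin and its host could be compared. The monogyne donors gave SB/SB pupae, which went either to a monogyne host (group mBB) or to a polygyne host (group mpBB). The polygyne donors gave pupae of both genotypes, all for polygyne hosts: SB/SB made up group pBB, and SB/Sb made up group pBL. Each group had 7 brains and 6 gasters from 32 workers in all, and 20 of them gave a library of each tissue. All workers were transferred, were 14 to 16 days old and weighed 0.6 to 0.9 mg, and were sampled on day 16 after the transfer into hosts of 250 workers with 1 queen (monogyne) or 2 queens (polygyne). Within a treatment, a stock colony was donor or recipient at most once.

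The brain libraries held 14527840 to 70040807 gene counts and the gaster libraries 30238770 to 77973614 over both strands. The kits differed, a low-input kit without strand for brain and a stranded kit for gaster, and therefore tissue and kit cannot be told apart. In libraries of whole organs, fewer cells of a type and less RNA per cell cannot be told apart either. Brain libraries mBB 4, pBL 2 and pBL 6 stood apart from the other brains of their groups. Without them the rule gave 198 of the 200 members, and no member was called in any brain comparison with or without them.

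The members took 8.89% to 12.8% of the counts of a brain library (mean 10.9% ± 0.98, SD, n = 28) and 0.0920% to 0.144% of a gaster library (mean 0.113% ± 0.0131, SD, n = 24). Their mean brain level ran from 29.7 to 17394 CPM, with a median of 176 CPM and quartiles of 93.5 and 441 CPM. Their mean gaster level ran from 0.0071 to 325 CPM, with a median of 1.20 CPM. The lowest mean of any member in any brain group was 27.8 CPM, and a minimum of 5 or 20 CPM in place of 10 gave the same 200 genes. In each of the 200 the lowest brain library lay above the highest gaster library. The 20 workers with both tissues gave 4000 differences of brain minus gaster, of which 4000 were positive, the lowest being 4.19 on the log2(CPM + 0.5) scale. Both counts follow largely from the rule, which chose the members by this difference in the same libraries. The median member differed by 6.16 to 6.58 within a worker, a range of less than 1 log2 unit over 20 workers.

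**Figure D1:**
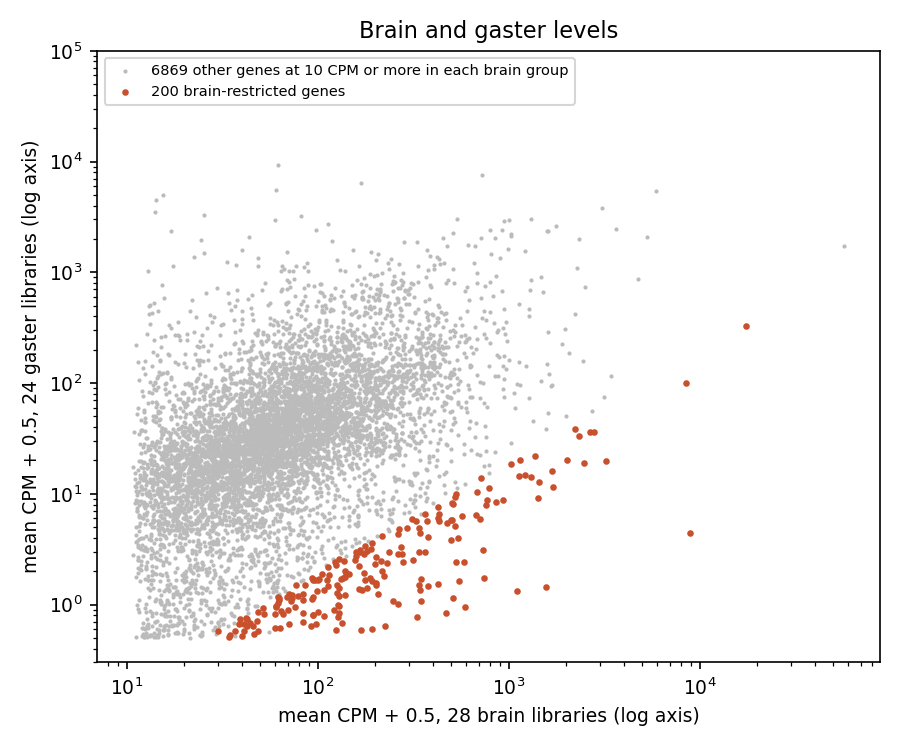
Mean level of each gene in the 28 brain libraries (x axis, CPM + 0.5, log scale) against its mean level in the 24 gaster libraries (y axis, CPM + 0.5, log scale); orange-red points are the 200 members and grey points the other genes at 10 CPM or more in each brain group. The members form the lower edge of the cloud over their range of 29.7 to 17394 CPM in brain.

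Levels between genes are shares of counts and are not corrected for length, which no source used here gives. By that measure 5 members held 37.2% of the summed brain level of the 200. SINVBB1_02539 led with 17394 ± 2884 CPM (SD, n = 28), with a lowest, median and highest brain of 13144, 16624 and 20619 CPM in mBB, 12712, 18728 and 21124 CPM in mpBB, 12602, 16609 and 18954 CPM in pBB, and 12750, 17630 and 23693 CPM in pBL. The 4 groups overlapped over most of their ranges. The same gene was also the member with the highest gaster level, at 325 ± 33.3 CPM (SD, n = 24). SINVBB1_01940 had 8836 ± 1615 CPM in brain and SINVBB1_00690 had 8494 ± 1516 CPM. Their gaster levels were far apart, at 3.96 ± 0.70 CPM for SINVBB1_01940 and 98.8 ± 40.2 CPM for SINVBB1_00690. SINVBB1_02540 (3233 ± 643 CPM) and SINVBB1_01795 (2794 ± 462 CPM) completed the 5, and each again overlapped across all groups.

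The difference of brain minus gaster, in log2 units with a pseudocount of 0.5 CPM, had a median of 6.33 over the members and of 0.97 over the 7069 genes they were taken from. It was largest for SINVBB1_01940, at 10.95. SINVBB1_14601 followed at 10.08, with 1563 ± 343 CPM in brain and 0.944 ± 0.312 CPM in gaster. SINVBB1_04977 (9.70), SINVBB1_01688 (9.26) and SINVBB1_14287 (9.11) came next. Of these 5 genes, only SINVBB1_01940 had a mean above 1 CPM in the gasters. At the other end, the last genes inside the 200 were SINVBB1_07598 (5.706), SINVBB1_04527 (5.701) and SINVBB1_11713 (5.694), and the nearest outside were SINVBB1_10530 (5.691), SINVBB1_05014 (5.691) and SINVBB1_09624 (5.690). The values ran on across the cut without a gap.

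Few members were without counts in the gaster. Of the 200, 182 had at least 1 count in each of the 24 gaster libraries and 18 had 0 counts in some. The mean gaster level was under 1 CPM in 87 members, under 0.1 CPM in 10 and at least 10 CPM in 20. After SINVBB1_02539 and SINVBB1_00690, the highest gaster levels were 38.2 ± 6.07 CPM for SINVBB1_00470 and 35.5 ± 5.74 CPM for SINVBB1_06767, whose brain means were 2217 and 2670 CPM. The 200 genes that a mirrored rule took for the gaster made up 17.7% to 21.7% of gaster counts and 0.0235% to 0.0952% of brain counts.

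The gaster libraries mark strand. The rule did not use the split by strand, but it chose the members by counts of both strands, so the split is not independent of it. The median member had 96.3% of its gaster counts on the reverse strand, which held 96.1% to 97.1% of all strand counts in that tissue, and 149 members had at least 90%. In 13 members (6.5%, against 4.16% of the other genes at the brain minimum) less than 50% of the counts lay on that strand. SINVBB1_14195 had 2562 counts on the forward strand and 15 on the reverse strand over the 24 gasters, and SINVBB1_13648 had 951 and 29. SINVBB1_09040 had 46670 forward and 1775 reverse counts, and its summed-strand level was 32.4 ± 5.83 CPM in gaster and 2332 ± 330 CPM in brain. SINVBB1_14601, with the next to largest tissue difference, had 22.9% of its gaster counts on the reverse strand. For such members the gaster counts come mostly from the opposite strand, and in brain the reads of a gene and of one opposite to it cannot be separated. With the reverse-strand counts alone in gaster, 167 of the 200 members were the same.

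Some members lay beside each other in the deposited row order, a property the rule did not use apart from the rows left out. Of the 200, 27 (13.5%) had another member in a neighbouring row, in 12 pairs and 1 run of 3, beside 2.90% of the 6869 other genes at the brain minimum that lay next to a member. Among the 14 neighbouring pairs the correlation of brain levels had a median of 0.528 over 28 brains, after removal of group means, and 8 reached 0.5. The median over all pairs of members was 0.157, and neighbouring rows of other genes were not compared. The lowest of the 14 was that of SINVBB1_06236 and SINVBB1_06237 (r = -0.40). SINVBB1_01869 (263 CPM in brain) lay beside SINVBB1_01940, and SINVBB1_00692 (338 CPM) beside SINVBB1_00690. The run of 3 held SINVBB1_03473, SINVBB1_02877 and SINVBB1_06553; the last 2 varied together (r = 0.80), and SINVBB1_03473 did not follow its neighbour (r = -0.21). No gene coordinates were used here, and row order was not tested as gene order.

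Between brains of the same group the members varied by a median SD of 0.292 on the log2(CPM + 0.5) scale. The median was 0.233 for the 6869 other genes and 0.200 for the 1870 of them within the interquartile range of the members' level. At the steady end, SINVBB1_03061 had an SD of 0.094 and SINVBB1_06767 one of 0.124. An SD above 0.5 was found in 8 members (4%), against 5.42% of the 6869 other genes, which were not matched in level for this share. The largest was that of SINVBB1_01917 (SD 1.18), whose lowest, median and highest brains were 26.6, 245 and 458 CPM in mBB, 56.5, 233 and 300 CPM in mpBB, 41.0, 237 and 357 CPM in pBB, and 55.8, 195 and 470 CPM in pBL. The low and the high brains of this gene were found in every group.

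SINVBB1_03473 (SD 1.09) differed in kind, because 1 brain of each group stood far above the rest. These were mBB 4 at 263 CPM, mpBB 12 at 313 CPM, pBB 4 at 490 CPM and pBL 4 at 302 CPM, while the other 24 brains lay between 26.4 and 74.5 CPM. Only 2 other members had a correlation of at least 0.8 to it, and they were highest in most of the same brains. SINVBB1_06470 (r = 0.85) had 154, 325, 425 and 332 CPM in them, and SINVBB1_06197 (r = 0.81) had 70.9, 83.0, 109 and 94.5 CPM, in the order mBB 4, mpBB 12, pBB 4 and pBL 4. In mBB 4 the level of SINVBB1_06470 equalled its group median of 154 CPM, so that brain was high in SINVBB1_03473 and SINVBB1_06197 but not in SINVBB1_06470. In these 4 brains the 200 members together took 8.89%, 9.52%, 10.6% and 9.20% of the counts. The mean of all 28 was 10.9% ± 0.98 (SD), and pBB 4 lay within that SD. Brain mBB 4 also stood apart from the other brains of its group. A correlation of -0.5 or below with SINVBB1_03473 was found in 31 members, and the share over other genes was not computed. None of the 4 workers gave a gaster library analysed here. They were numbered 177, 195, 159 and 157 in the same order. Brains mBB 4, pBB 4 and pBL 4 share a replicate number, which no mpBB library carries. Workers 161, 173, 179 and 188, within that span, were among the 24 lower brains. Whether the pattern follows either number was not tested.

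SINVBB1_11757 (SD 0.857) ranged from 110 to 1361 CPM. Its lowest, median and highest brains were 151, 292 and 649 CPM in mBB, 110, 355 and 672 CPM in mpBB, 124, 615 and 942 CPM in pBB, and 383, 617 and 1361 CPM in pBL. The group medians were higher in workers of polygyne origin, and all groups overlapped. SINVBB1_07691 (SD 0.686, 20.1 to 120 CPM) and SINVBB1_08611 (SD 0.631, 161 to 600 CPM) had ranges that crossed in all 4 groups.

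**Figure D2:**
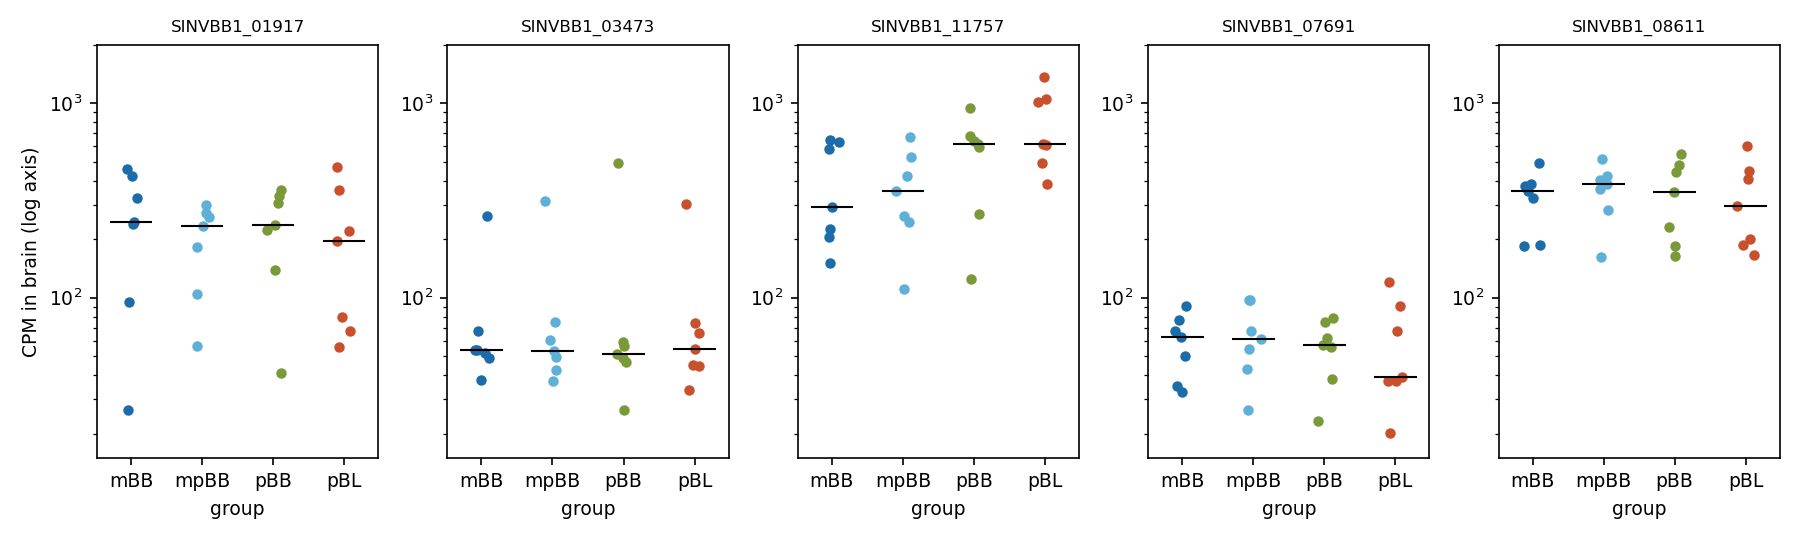
Level of the most variable members in each of the 28 brain libraries (y axis, CPM, log scale) by group (x axis); each point is 1 brain and the line is the group median. SINVBB1_03473 shows 1 brain per group at 263 CPM or above, over 24 brains between 26.4 and 74.5 CPM.

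Deviations from the group means were weakly shared between members. The median correlation over the 19900 pairs of members was 0.157 across 28 brains, against 0.0358 over pairs of the other genes, and 421 pairs (2.12%, against 1.89%) reached 0.8. Joining members through any chain of such pairs gave 13 sets, with 92 members in the largest and 5 in the next, and left 77 members unlinked. Other genes were not joined in this way, so the set sizes are not read as particular to the members. The members share libraries and their depth, so these values describe the brains sampled and carry no test.

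The comparison of SB/Sb with SB/SB workers, both of polygyne origin in polygyne hosts (pBL minus pBB), addresses the effect of genotype. In brain no member passed the test. The edgeR quasi-likelihood test called 0 of 200 members at an adjusted p of 0.05, where it called 0.516% of the 12006 genes tested (0.458% higher and 0.0583% lower in SB/Sb). Those genes include the rows that the rule kept out of the members, and without these rows the share was 0.259% of 11195 genes. A count of 0 in 200 members is near either share. DESeq2 likewise called 0 members, here and in the 5 comparisons that follow. At an unadjusted p under 0.05 there were 4 members (2%), against 3.54% of all genes tested and 2.72% without those rows. The median log2 fold change of the members was 0.014, with 108 of 200 above 0, beside a median of 0.017 over all genes. Estimates were narrow: for 197 of 200 members the 95% confidence interval lay within a 2-fold change in either direction, and for 176 within a 1.5-fold change. No member had groups without overlap, against 0.441% of all genes tested (0.025% for host and 0.025% for origin, again with 0 members). The 0.441% includes the rows left out of the members, and the share without them was not computed.

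The fold changes of the members ran from -0.29 to 0.52 on the log2 scale, and the members with the smallest p in each direction lay inside that range. SINVBB1_01940 had a lowest, median and highest brain of 7045, 8024 and 9186 CPM in pBB and 6469, 9728 and 13605 CPM in pBL. Brains pBL 1, pBL 2, pBL 3, pBL 5 and pBL 6 lay above every pBB brain (13605, 11387, 9839, 9312 and 9728 CPM). Brain pBL 7 lay inside the pBB range (8889 CPM) and pBL 4 below it (6469 CPM). The log2 fold change of SINVBB1_01940 was 0.31 ± 0.14 (SE), with an edgeR adjusted p of 0.999994. Over 40 settings that fold change of SINVBB1_01940 ran from 0.066 in workers numbered over 140 to 0.59 in those under 140, and it was 0.20 without pBL 1. SINVBB1_03072 had 258, 273 and 351 CPM in pBB and 210, 229 and 270 CPM in pBL, with the lowest SB/SB brain inside the SB/Sb range. Its log2 fold change was -0.24 ± 0.10 (SE), with the same adjusted p.

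In gaster, 185 of the 200 members passed the filter on low counts and entered the test; the other 15 did not. The counts tested there were those of the reverse strand, while the gaster CPM values printed here use both strands. In edgeR's test 0 of 185 members were called for genotype, where 0.596% of the 11574 genes tested were (0.501% higher, 0.095% lower) and 0.343% of the 10790 genes outside the rows left out. At an unadjusted p under 0.05 there were 5 members (2.70%, 4 higher and 1 lower), against 5.24% of all genes tested and 4.37% outside those rows. Groups did not overlap in 0 members, against 0.838% of all genes tested for genotype and 0.104% for origin. The 0.838% again includes the rows left out, and no share without them was computed. The fold changes leaned to one side without any single gene passing: 153 of 185 were above 0, with a median of 0.187 on the log2 scale, beside -0.001 over all genes tested. With no filter, 166 of all 200 were above 0 and the median was 0.200. The summed level of the members was 1041 ± 68.2 CPM in pBB and 1176 ± 195 CPM in pBL (SD, n = 6 each), so that the groups overlapped, and pBL ran from 939 to 1444 CPM.

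The lean in gaster did not hold in both ranges of worker number. The labels number the workers without saying what the number marks, and the split at 140 was chosen after the data were seen. Each gaster group has 3 of each. Among workers under 140 the median log2 fold change of the members for genotype was 0.41, with 159 of 184 above 0. Among workers over 140 it was -0.05, with 81 of 184 above 0. The summed gaster level of the members under and over 140 averaged 1016 and 1066 CPM in pBB and 1326 and 1026 CPM in pBL (n = 3 each). The 3 SB/Sb gasters under 140 thus carried the higher mean, and over 140 the SB/Sb mean was below the SB/SB mean. In brain the same medians were 0.11 under 140 and -0.09 over 140.

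**Figure D3:**
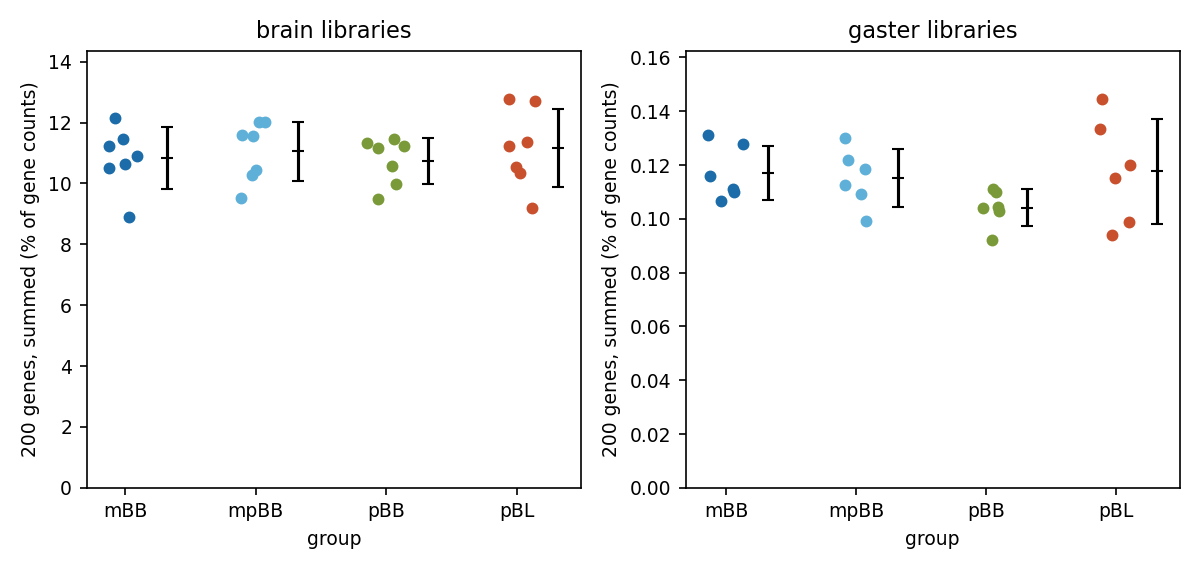
Summed level of the 200 members as a percent of gene counts (y axis, from 0) in brain and gaster libraries by group (x axis); points are single libraries and bars the mean ± SD (n = 7 brains, n = 6 gasters per group). Brain libraries lie between 8.89% and 12.8% and gaster libraries between 0.0920% and 0.144%, with all groups overlapping in each tissue.

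The lean was uneven over the gaster libraries. The median deviation of the members from their overall mean was lowest in pBB 1 (-0.255 on the log2 scale) and pBB 3 (-0.228), where 26.5% and 23% of members exceeded their own mean. It was highest in pBL 8 (0.300), where 176 of the 200 did. The group means of this deviation were 0.038 in mBB, 0.022 in mpBB, -0.097 in pBB and 0.031 in pBL, against an SD within groups of 0.112. The 3 groups other than pBB thus lay close together, and pBB lay below them by about the spread between libraries.

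**Figure D4:**
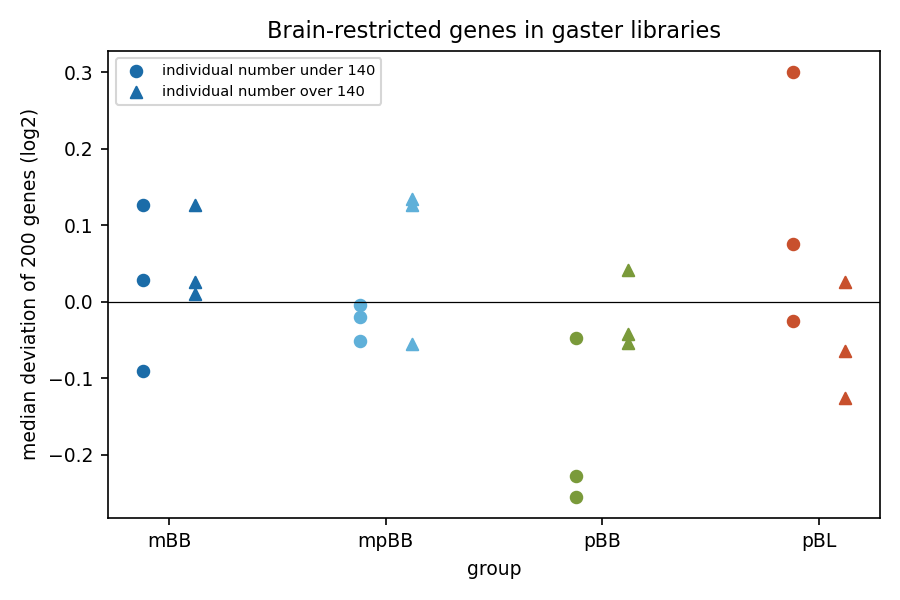
Median deviation of the 200 members from their mean over the 24 gasters (y axis, log2) for each gaster library, by group (x axis); circles are workers numbered under 140 and triangles those over 140. The lowest points are pBB 1 at -0.255 and pBB 3 at -0.228, and the highest is pBL 8 at 0.300.

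The gaster members with the smallest p for genotype were low in that tissue. SINVBB1_11780 had a lowest, median and highest gaster of 0.331, 0.472 and 0.576 CPM in pBB and 0.428, 0.881 and 1.10 CPM in pBL. The ranges overlapped at their ends. Its log2 fold change was 0.77 ± 0.25 (SE, 95% interval 0.25 to 1.30), with an edgeR adjusted p of 0.397. SINVBB1_11757 had 1.07, 2.11 and 3.37 CPM in pBB and 1.02, 1.45 and 1.57 CPM in pBL, a log2 fold change of -0.57 ± 0.26 (SE) with an edgeR adjusted p of 0.919. Its strand split varied: mBB 7 had 144 forward, 91 reverse and 85 unstranded counts, and mpBB 15 had 19, 167 and 146. The CPM come from the unstranded counts, which thus leave out part of the strand counts of this gene. In brain the same gene had its higher mean in pBL, 789 ± 356 CPM against 553 ± 272 CPM in pBB (SD, n = 7 each), with overlapping ranges, and the difference between tissues was not tested.

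The host comparison (mpBB minus mBB) set monogyne-born SB/SB workers kept by a polygyne host against those kept by a monogyne host. In brain edgeR called 0 of 200 members and 0% of all genes tested. At an unadjusted p under 0.05 there were 2 members (1%), against 2.27% of all genes. The median log2 fold change was 0.007 for the members, with 108 above 0, and -0.003 for all genes, and 197 of 200 members had a 95% interval within a 2-fold change. SINVBB1_09099 had a lowest, median and highest brain of 1076, 1315 and 1833 CPM in mBB and 1468, 1802 and 2109 CPM in mpBB. The highest mBB brain lay inside the mpBB range. The log2 fold change was 0.38 ± 0.14 (SE), with an edgeR adjusted p of 1. SINVBB1_03555 had 343, 637 and 1111 CPM in mBB and 291, 421 and 614 CPM in mpBB, a log2 fold change of -0.64 ± 0.25 (SE) with an edgeR adjusted p of 1.

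In gaster the host comparison also gave 0 of 185 members and 0% of all genes by edgeR, with 2 members (1.08%) at an unadjusted p under 0.05 against 4.58% of all genes. The median log2 fold change was -0.034, with 82 of 185 above 0, beside -0.002 over all genes. SINVBB1_07598, among the 3 genes just inside the cut of 200, was the single member whose 2 groups did not overlap, where 0.259% of all genes tested had such groups. Its lowest, median and highest gasters were 13.8, 15.4 and 17.7 CPM in mBB and 10.6, 12.4 and 13.7 CPM in mpBB. The lowest mBB gaster and the highest mpBB gaster nearly met. The log2 fold change was -0.39 ± 0.13 (SE), with an edgeR adjusted p of 0.999927. The pBB and pBL gasters, also from polygyne hosts, ranged from 8.27 to 13.7 CPM and from 9.34 to 17.4 CPM, so that pBL reached into both ranges. In the other direction SINVBB1_01504 had the smallest p, with a mean of 0.382 CPM in the mpBB gasters beside 0.228 CPM for mBB (edgeR adjusted p 0.999927).

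The origin comparison (pBB minus mpBB) set polygyne-born against monogyne-born SB/SB workers, all kept by polygyne hosts. It shares pBB with the genotype comparison and mpBB with the host comparison, so their values are not independent of each other. In brain edgeR called 0 of 200 members and 0% of all genes, and 0 members against 1.57% of all genes had an unadjusted p under 0.05. The median log2 fold change was -0.041, with 63 of 200 above 0, beside -0.004 over all genes, and 197 of 200 members had a 95% interval within a 2-fold change. SINVBB1_00286 had the smallest p on the higher side, with 118 ± 14.8 CPM in the pBB brains beside 105 ± 17.2 CPM for mpBB (SD, n = 7 each). On the lower side it was SINVBB1_06457, with 112 ± 14.7 CPM in the pBB brains beside 130 ± 22.0 CPM for mpBB (SD, n = 7 each). The edgeR adjusted p of each was 0.999851, and the ranges overlapped.

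In gaster the origin comparison gave 0 of 185 members and 0% of all genes by edgeR, with 4 members (2.16%, all lower in pBB) at an unadjusted p under 0.05 against 2.72% of all genes. Of the 185 members 37 had a log2 fold change above 0, with a median of -0.169 beside -0.002 over all genes tested, and with no filter 42 of 200 were above 0. Among workers under 140 the median was -0.20 and among those over 140 it was -0.14. The summed level was 1151 ± 108 CPM in mpBB and 1041 ± 68.2 CPM in pBB (SD, n = 6 each), with overlapping ranges of 990 to 1301 and 920 to 1111 CPM. SINVBB1_04923 had a lowest, median and highest gaster of 0.380, 0.814 and 2.72 CPM in mpBB and 0.378, 0.470 and 1.05 CPM in pBB. Its highest value was that of 1 library, mpBB 11, and the ranges overlapped. The log2 fold change was -0.87 ± 0.37 (SE), and -0.27 without mpBB 11, with an edgeR adjusted p of 0.999899.

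**Figure D5:**
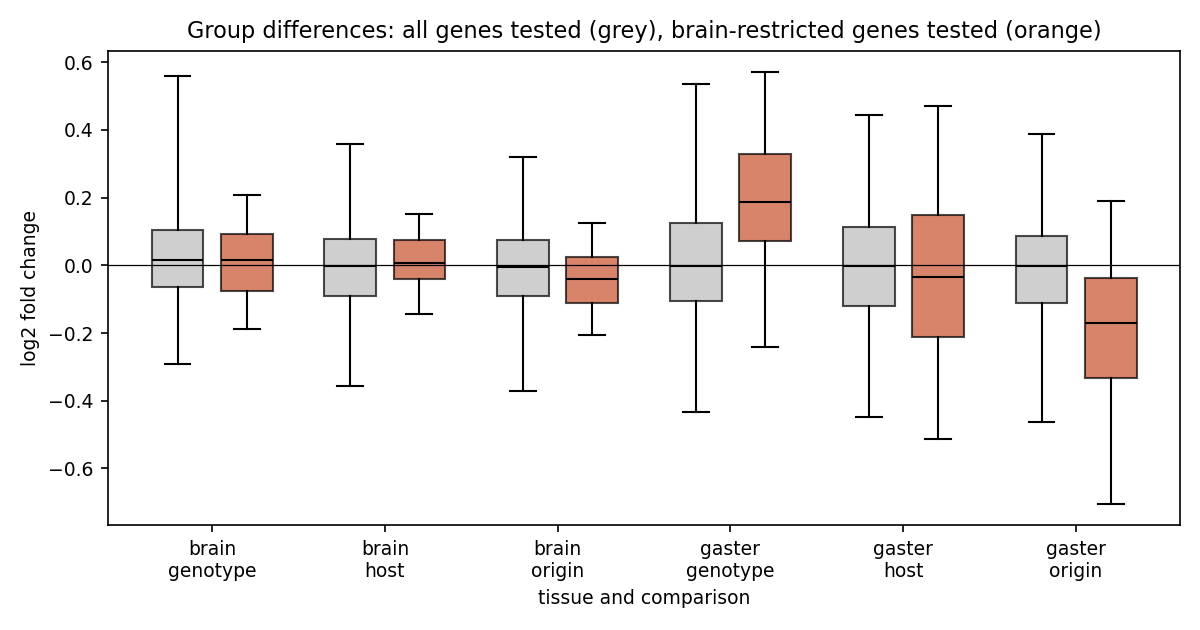
Log2 fold changes (y axis) of the members tested (orange) and of all genes tested (grey) for the genotype, host and origin comparisons in brain and gaster; boxes are quartiles with the median, whiskers the 5th to 95th percentile. The members' medians in brain are 0.014 for genotype, 0.007 for host and -0.041 for origin, and in gaster they are 0.187 for genotype and -0.169 for origin.

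Precision differed between the tissues. The median standard error of a member's log2 fold change was 0.153 in brain and 0.312 in gaster, where the members are low. In gaster the 95% interval lay within a 2-fold change for 116 of 185 members in the genotype comparison, 122 for host and 114 for origin, and within a 1.5-fold change for 33, 40 and 45.

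Levels were also set beside the worker number. In gaster, 3 of the 200 members (1.5%), SINVBB1_00690, SINVBB1_08175 and SINVBB1_03086, did not overlap between workers under and over 140, against 0.562% of the 11574 genes tested. The 200 include the 15 members that did not pass the filter, which all of the 11574 genes passed. So small a count is not read as a trait of the members. SINVBB1_00690 had 131 ± 31.3 CPM under 140 (90.5 to 190 CPM) and 66.9 ± 12.8 CPM over 140 (45.6 to 88.2 CPM; SD, n = 12 each). SINVBB1_03555 leaned the other way, with 5.48 ± 2.37 CPM under 140 and 13.5 ± 6.07 CPM over it (SD, n = 12 each). These splits were chosen from the data and have no test. In brain the members' summed level averaged 115413 ± 7809 CPM under 140 (n = 12) and 105062 ± 8928 CPM over 140 (n = 16), while the lowest and highest group means were 107461 CPM (pBB) and 111629 CPM (pBL). The split was uneven over the groups. Means under and over 140 were 107951 and 107094 CPM in pBB, and 122297 and 103627 CPM in pBL. They were 114247 and 103793 CPM in mBB, and 117156 and 105733 CPM in mpBB. Some brain libraries of each group carry the word merge in their titles, and all of these were of workers over 140. Other brains over 140 do not carry it, and the sums given here were not split by that label.

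Genes of the other tissue took a small share of the brain counts. The 200 genes taken by the mirrored rule for gaster summed to 295 ± 70.6 CPM in mBB, 346 ± 132 CPM in mpBB, 413 ± 154 CPM in pBB and 498 ± 244 CPM in pBL (SD, n = 7 each), with pBL 1 highest at 952 CPM. The ranges of the 4 groups overlapped, from 235 to 444 CPM in mBB at one end and from 275 to 952 CPM in pBL at the other. That library also had the highest level of its group for SINVBB1_14601 (2722 CPM) and SINVBB1_04977 (1973 CPM). The part of these sums in any member's value was not tested.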

How the data were processed

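The submitters' processing notes name Trim Galore, STAR and edgeR. Versions, genome build and annotation: not given in the sources used here. The authors deposited raw counts per gene, 1 file per library, in 3 columns (unstranded and each strand). The 4 rows that name no gene held 58.4% to 74.7% of brain reads and 37.6% to 70.9% of gaster reads, and stayed out of library sizes. CPM were computed from the deposited unstranded counts in each tissue, as the rule asks.

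Tests used edgeR 4.0.16 in R 4.3.3 on the whole table: TMM scaling, edgeR's filter by group, 1 quasi-likelihood fit of the 4 groups per tissue, unstranded counts in brain and reverse-strand counts in gaster (96.1% to 97.1% of strand counts there, and 49.7% to 50.1% in brain), Benjamini-Hochberg adjustment over all genes tested, and an adjusted p of 0.05. DESeq2 1.42.0 was an alternative. The scripts were tested on simulated data. Genes whose reads a close paralog or, in brain, an opposite gene shares are uncertain.

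Members and lists were chosen with earlier results of these data known. Planned marker lists were not used, since 0 identifiers matched names. Named genes are the 5 highest in brain, in gaster, in tissue difference and in SD within brain groups, the 3 on each side of the cut, the 3 with the lowest reverse-strand share, the members linked to a variable one, and the member with the smallest p in each direction per comparison; a few others named beside neighbours, worker numbers and the lowest SD were chosen after their values were seen. Replicate numbers are shared by mBB, pBB and pBL. In brain the deviations from group means of same-numbered pBB and pBL libraries correlated in each of 7 pairs (0.143 to 0.497). A fit with the number as a block was therefore run on these 2 groups as an alternative. No library pair was identical.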

Additional observations from a re-analysis of the deposited data

Results flagged for a closer look

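In 152 groups of libraries for the named members, 16 had a library standing far from the rest of its group (10.5%), where chance gives about 1 in 20. Some of these members were named for their large spread in brain, so the share is not comparable with chance. SINVBB1_03473 gave 4 of them, in brain: mBB 4 (263 CPM, next 67.6), mpBB 12 (313 CPM, next 74.5), pBB 4 (490 CPM, next 59.5) and pBL 4 (302 CPM, next 73.8). Brain pBL 1 was the highest of its group for SINVBB1_14601 (2722 CPM, next 1794) and for SINVBB1_04977 (1973 CPM, next 1174). Brain mBB 3 was highest for SINVBB1_03072 (354 CPM, next 272), and brain mpBB 12 was lowest for SINVBB1_11713 (23.0 CPM, next 30.6).

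In gaster, pBL 8 was highest for SINVBB1_01795 (70.9 CPM, next 41.8) and for SINVBB1_04923 (1.02 CPM, next 0.674). SINVBB1_04923 was also highest in mpBB 11 (2.72 CPM, next 0.996) and pBB 7 (1.05 CPM, next 0.595). SINVBB1_13648 stood out in mBB 1 (1.12 CPM, next 0.612), pBB 6 (1.05 CPM, next 0.528) and pBL 1 (1.04 CPM, next 0.641). Gaster mBB 3 was lowest for SINVBB1_06767 (29.4 CPM, next 36.4). Forward-strand gaster counts, which the reverse-strand tests left out, came to 2562 for SINVBB1_14195, 951 for SINVBB1_13648 and 46670 for SINVBB1_09040, above the 15, 29 and 1775 counts on the strand tested.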

How the results depend on the processing

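No member passed the adjusted p of 0.05 in any of 221 combinations of comparison and setting, which included DESeq2, other scalings and filters, the unstranded gaster counts and each library left out. The lowest adjusted p was 0.387, 0.626 and 0.999 in brain and 0.207, 0.619 and 0.551 in gaster, for genotype, host and origin. Of the members' median fold changes, that of gaster genotype (0.187) moved most, to 0.41 in workers under 140 and -0.05 in those over 140. With each library left out in turn it ran from 0.146 to 0.231, and that of gaster origin from -0.202 to -0.126. With the replicate block, fitted to pBB and pBL alone, 0 members were called in either tissue and the gaster genotype median was 0.18 (143 of 176 above 0); in gaster the 6 same-numbered pairs correlated by 0.0928 to 0.494 (mean 0.319, other pairs -0.063), the lowest being under the limit of 0.1 for pairing. The block changed no call. No paired analysis was possible for host and origin because mpBB shares no replicate numbers with the other groups. No gaster library stood apart, so that setting has no gaster value. Of the 200 members, 144 were shared with a pseudocount of 0.1, 158 with 2, 167 with reverse-strand gaster counts, 193 with medians, and 200 with TMM or a minimum of 5 or 20 CPM. Median standard errors were 0.153 in brain and 0.312 in gaster.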
